A study of Mus musculus with 8 samples.

Results

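The ephrins, Slits, netrins and their receptors were examined in nuclear RNA of cortical GABAergic neurons from control mice and from mice carrying a mutation of Thra, the gene of a nuclear receptor for thyroid hormone. The genes were chosen by name: protein-coding genes of the GENCODE M21 annotation whose symbol is that of an ephrin (Efna, Efnb), an Eph receptor (Epha, Ephb), a Slit, a Robo, a netrin (Ntn), an Unc5 or Dcc. This gave 38 of the 55450 genes in the count tables. The rule reads symbols and no expression value, but the families were picked with earlier results of these data known. They divide into 22 ephrin and Eph genes, 7 Slit and Robo genes, and 9 netrin, Unc5 and Dcc genes. Control mice were Thra+/+ and mutant mice were Thra+/AMI, the mutant allele encoding a receptor with dominant-negative action. In both groups a Cre driver for GABAergic neurons, which the labels do not name, switched on a nuclear fluorescent reporter, and in mutants also the Thra allele. The mice were juvenile with no age in days given, and each library came from the sorted nuclei of 1 cortex.

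These families are the classical short-range and long-range cues of axon guidance and neuronal migration. Ephrins are tethered to the membrane and bind Eph receptor tyrosine kinases on neighbouring cells: ephrin-A ligands hold on by a lipid anchor and mostly bind EphA receptors, whereas ephrin-B ligands span the membrane and mostly bind EphB receptors. Slits are secreted and usually repel through Robo receptors. Netrins attract through Dcc and repel through Unc5 receptors. In the developing cortex members of these families have been linked to the migration of interneurons from the ganglionic eminences, and several act later at synapses.

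The comparison was between controls 1 to 4 and mutants 6, 7 and 8. The table of mutant 10 held the same counts as that of mutant 7 in all 21975 genes with a count and a symbol of their own, so the tables were used as 1 library. Libraries held 10747169 to 13804734 counts. Values are CPM, reads of a gene relative to the TMM-scaled library size. A gene was called when its p from the quasi-likelihood test of edgeR, adjusted by Benjamini-Hochberg over all 16448 tested genes, was under 0.05. Summed over the 8 GABAergic markers, libraries lay between 4982 and 6721 CPM (Dlx1 and Dlx6 were at 0 in all), and over the 8 glutamatergic markers between 80.4 and 148 CPM. Thra itself was at 105.5 to 125.5 CPM in controls and at 77.6 to 96.3 CPM in mutants (log2 fold change -0.39, SE 0.11, edgeR adjusted p 0.0543), and the counts do not separate the alleles.

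Of the 38 guidance genes, 35 had enough counts to be tested, and 8 of them were called: Slit1, Epha8, Efnb3, Efnb2 and Unc5d were higher in mutants, and Epha4, Ephb1 and Ntn4 were lower. The called share was 22.9% of the tested members, against 9.42% of all tested genes (4.63% higher and 4.78% lower). The median absolute log2 fold change was 0.53 over the tested members and 0.21 over all tested genes. All tested genes, the background here, were not matched to the members in length or count level. Of the 35 tested members, 18 span more than 100 kb. Signs were balanced, with 17 members above 0 and 18 below, and a median of -0.03 against -0.01 over all tested genes. For 12 of the 35 tested members (34.3%) the ranges of control and mutant libraries were separate, compared with 22.0% of all tested genes. These 12 were the 8 called genes with Efnb1 and Unc5a on the higher side and Epha10 and Epha3 on the lower side. In bulk nuclei a change in the share of one interneuron class and a change in RNA per nucleus cannot be told apart.

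**Figure D1:**
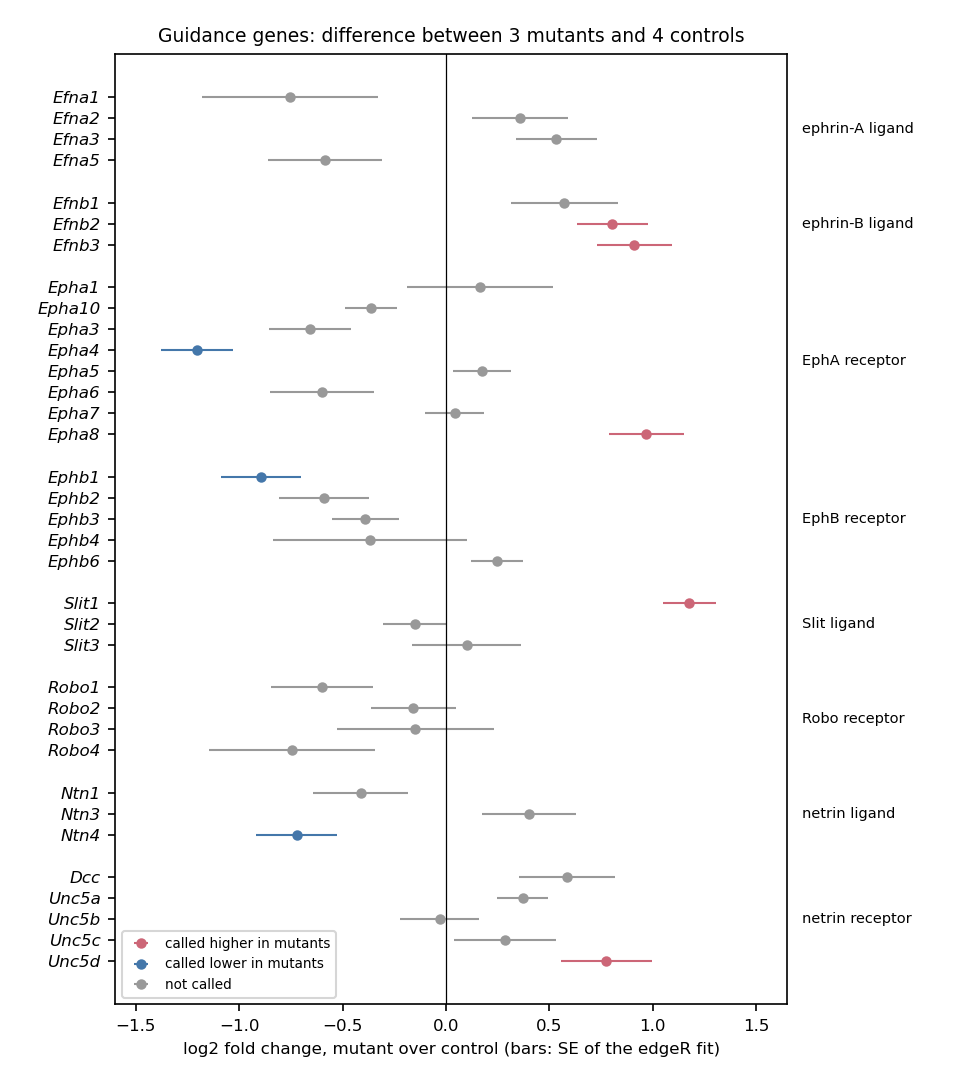
Log2 fold change of mutant over control (x axis) for the 35 tested guidance genes, grouped by family on the y axis. Points are estimates of the edgeR fit, bars are 1 SE, red and blue mark genes called higher and lower. The 3 ephrin-B ligands lie to the right of 0 and all 4 Robo receptors to its left, while the EphA receptors run from -1.21 for Epha4 to 0.97 for Epha8.

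Of the 3 ephrin-B ligands, 2 were called higher and the third, Efnb1, was not called. Efnb3, a ligand found on neurons and their axons, was at 30.4, 26.4, 32.2 and 18.5 CPM in controls 1 to 4 and at 42.8, 59.5 and 49.3 CPM in mutants 6, 7 and 8. Every mutant exceeded every control. The rise was 1.88-fold (log2 fold change 0.91, SE 0.18, edgeR adjusted p 0.00774). Efnb2, which besides neurons is a textbook marker of arterial endothelium, was at 22.5, 16.5, 20.2 and 26.9 CPM in controls and at 31.2, 39.7 and 41.9 CPM in mutants. It rose 1.75-fold (log2 fold change 0.80, SE 0.17, edgeR adjusted p 0.0112), again with no overlap. The summed level of 8 endothelial and mural markers was 71.5 to 167 CPM in controls and 74.3 to 109.3 CPM in mutants, with 0 of 8 called and 7 of 8 log2 fold changes negative, and their part in the value of Efnb2 was not tested. Efnb1, the X-linked member, was at 2.72 to 4.52 CPM in controls and 4.69 to 6.98 CPM in mutants, and its difference of 0.57 on the log2 scale (SE 0.26) was not called (adjusted p 0.209). Both calls depended on single mutants. Efnb3 had an adjusted p of 0.0611 without mutant 7 (log2 fold change 0.78), and Efnb2 one of 0.0625 without mutant 7 (0.77) and 0.0694 without mutant 8 (0.73). Of the span of Efnb2, 26.0% is shared with other annotated genes on the same strand, though none of its exons.

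No ephrin-A ligand was called. Efna5, the most abundant of them and a repellent for EphA-bearing axons and interneurons, was at 124, 192, 159 and 351 CPM in controls 1 to 4. It was at 146.7, 122.8 and 143.7 CPM in the mutants, which is within the range of the controls apart from mutant 7. Control 4 stood far above the other controls, and the log2 fold change of -0.58 (SE 0.28) was not called (edgeR adjusted p 0.237). Efna3 was at 10.1 to 12.4 CPM in controls and 11.9 to 21.3 CPM in mutants (log2 fold change 0.53, SE 0.20, adjusted p 0.123). Of the span of Efna3, 38.3% is shared with a gene on the opposite strand, and the strand setting of the counting is not given in the sources used here. Efna2 (0.36, SE 0.23) and the sparsely counted Efna1 (-0.76, SE 0.43, on 8 to 28 reads per library) were not called either. Efna4 was left untested at 0 to 4 reads per library.

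Among EphA receptors the changes went both ways. Epha4, which unlike most of its class binds ephrins of both types, had the largest fall among the guidance genes. It was at 88.5, 119, 89.7 and 141 CPM in controls 1 to 4 and at 44.4, 42.8 and 55.2 CPM in mutants 6, 7 and 8. The highest mutant was thus well below the lowest control. Its level in mutants was 0.433 times that in controls (log2 fold change -1.21, SE 0.17, edgeR adjusted p 0.00104). Epha8 moved the other way, from 19.0, 20.7, 22.8 and 12.9 CPM in controls to 34.7, 42.9 and 33.2 CPM in mutants, a 1.96-fold rise without overlap (log2 fold change 0.97, SE 0.18, adjusted p 0.0054). Both genes were called in each of the 18 alternative fits, including every fit without 1 library.

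The other EphA receptors were not called. Epha3 was at 73.4 to 154 CPM in controls and at 70.9 to 73.3 CPM in mutants, so that the groups nearly touched (log2 fold change -0.66, SE 0.20, edgeR adjusted p 0.0575). Epha10, a receptor whose kinase domain lacks activity, was at 276 to 330 CPM in controls and 218 to 261 CPM in mutants, without overlap (log2 fold change -0.36, SE 0.13, adjusted p 0.0986). Both passed in edgeR when either control 1 or control 4 alone was left out. The adjusted p of Epha3 was 0.000912 without control 1 (log2 fold change -0.82) and 0.0393 without control 4 (-0.48). That of Epha10 was 0.040 without control 1 (-0.40) and 0.042 without control 4 (-0.38). With all 7 libraries, Epha3 and Epha10 also passed under DESeq2 (adjusted p 0.0273 and 0.0341) and limma-voom (adjusted p 0.00213 and 0.00295). Epha6 stood at -0.60 on the log2 scale (SE 0.25, adjusted p 0.176) and passed without control 1 (-0.78, adjusted p 0.0127). Epha5 (0.17, SE 0.14) and Epha7 (0.04, SE 0.14), both known as graded receptors in the developing forebrain, had small differences relative to their errors. Epha1 was counted at 18 to 48 reads per library (log2 fold change 0.17, SE 0.35), and Epha2 was untested at 0 to 4 reads.

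Of the EphB receptors, Ephb1 fell. It was at 33.0, 40.4, 45.4 and 62.0 CPM in controls 1 to 4 and at 26.7, 21.2 and 24.9 CPM in mutants 6, 7 and 8. The groups did not overlap, and the mutant level was 0.537 times that of controls (log2 fold change -0.90, SE 0.19, edgeR adjusted p 0.0119). The call was lost without mutant 7 (log2 fold change -0.80, adjusted p 0.0825) or mutant 8 (-0.91, adjusted p 0.0578). Of the span of Ephb1, 10.1% is shared with other genes on both strands, and 2.17% of its exonic bases. Ephb2 and Ephb3, kinases that act at excitatory synapses among other sites, had log2 fold changes of -0.59 (SE 0.22, adjusted p 0.122) and -0.39 (SE 0.16, adjusted p 0.173). Ephb2 passed without control 1 (-0.75, adjusted p 0.0071). Ephb6, the other member without kinase activity, was the most abundant EphB receptor at 140 to 183 CPM in controls and 171 to 205 CPM in mutants (log2 fold change 0.25, SE 0.13, adjusted p 0.284). Ephb4, the venous endothelial receptor of Efnb2, was counted at 6 to 19 reads per library (-0.37, SE 0.47).

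Slit1 had the largest rise of the guidance genes and the smallest adjusted p. This repellent ligand was at 32.7, 35.9, 44.2 and 39.9 CPM in controls 1 to 4 and at 96.4, 85.6 and 76.9 CPM in mutants 6, 7 and 8. The lowest mutant exceeded the highest control by a wide margin. The rise was 2.26-fold (log2 fold change 1.18, SE 0.13, edgeR adjusted p 0.000161), and Slit1 was called in each of the 18 alternative fits. The other Slits did not follow. Slit2, with the most counts of the family, was at 229 to 340.0 CPM in controls and 241 to 298 CPM in mutants (log2 fold change -0.15, SE 0.15, adjusted p 0.636). Slit3 was at 60.75 to 175 CPM in controls and 102.4 to 123.4 CPM in mutants (0.10, SE 0.26, adjusted p 0.88), and without control 4 it passed at 0.46 (adjusted p 0.0374).

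None of the 4 Robo receptors was called; their log2 fold changes were all negative, as were those of 8560 of the 16448 tested genes. Robo1, the major Slit receptor together with Robo2, was at 477, 764, 654 and 1155 CPM in controls 1 to 4 and at 518, 523 and 469 CPM in mutants 6, 7 and 8 (log2 fold change -0.60, SE 0.25, edgeR adjusted p 0.169). Only mutant 8 lay below every control, and without control 1 the gene passed (-0.76, adjusted p 0.0149). Robo2 was at 405 to 797 CPM in controls and 512 to 553 CPM in mutants (-0.16, SE 0.20). Robo3, a divergent Robo known from commissural axons, was uneven among the mutants: it was at 31.7 and 28.7 CPM in mutants 6 and 8 and at 7.16 CPM, or 78 reads, in mutant 7, while controls ranged from 18.2 to 35.7 CPM. Its log2 fold change of -0.15 (SE 0.38) became 0.27 without mutant 7, and neither value was called (adjusted p 0.877 and 0.66). Robo4, the endothelial Robo, was at 2.06 to 4.997 CPM in controls and 1.10 to 2.66 CPM in mutants (-0.75, SE 0.40).

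Among netrins, Ntn4 fell. Ntn4, a netrin of basement membranes that binds laminin, was at 37.7, 58.7, 48.4 and 70.8 CPM in controls 1 to 4 and at 35.1, 26.7 and 36.1 CPM in mutants 6, 7 and 8. The groups did not overlap, but control 1 lay just above mutant 8. The mutant level was 0.606 times that of controls (log2 fold change -0.72, SE 0.20, edgeR adjusted p 0.0371). This call was fragile: it was lost without control 2, control 3, mutant 6, mutant 7 or mutant 8 (log2 fold changes from -0.79 to -0.59, adjusted p-values from 0.0612 to 0.191), and in the fit without control 4 and mutant 8, which held 4 and 3 reads of Y-linked genes against 5094 to 6644 in the others (adjusted p 0.0519). Ntn1, the prototype attractant for Dcc, was at 11.5 to 21.2 CPM in controls and 8.68 to 14.2 CPM in mutants (-0.41, SE 0.23, adjusted p 0.323). Ntn3 was not called (0.40, SE 0.23), and Ntn5 was untested at 0 to 1 reads, with 98.5% of its span shared with a gene on the opposite strand.

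Of the 5 netrin receptors, Unc5d was called higher and the other 4 were not called. Unc5d, a repulsive receptor that also binds the adhesion protein Flrt2, was at 173, 254, 230 and 389 CPM in controls 1 to 4 and at 495, 439 and 409 CPM in mutants 6, 7 and 8. Every mutant exceeded control 4, the highest control. The rise was 1.71-fold (log2 fold change 0.78, SE 0.22, edgeR adjusted p 0.046). The call did not hold when control 2, control 3 or any of the mutants was left out (log2 fold changes from 0.70 to 0.84, adjusted p-values from 0.104 to 0.185), whereas without control 4 it was 1.03 (adjusted p 0.000136). Dcc was at 183, 322, 253 and 435 CPM in controls and at 485, 436 and 423 CPM in mutants, overlapping only through control 4 (0.59, SE 0.23, adjusted p 0.149). Without control 4, Dcc passed at 0.82 (adjusted p 0.00279). Unc5a was at 30.8 to 38.4 CPM in controls and 39.9 to 48.7 CPM in mutants, without overlap (0.37, SE 0.12, adjusted p 0.0859), and it passed without control 1 (0.44, adjusted p 0.0293). Unc5c (0.28, SE 0.25, adjusted p 0.567) passed only when control 4 was left out among the single removals (0.55, adjusted p 0.0394). Unc5b, which is also an endothelial netrin receptor, was at 13.8 to 20.2 CPM in controls and 13.5 to 20.6 CPM in mutants (-0.03, SE 0.19).

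**Figure D2:**
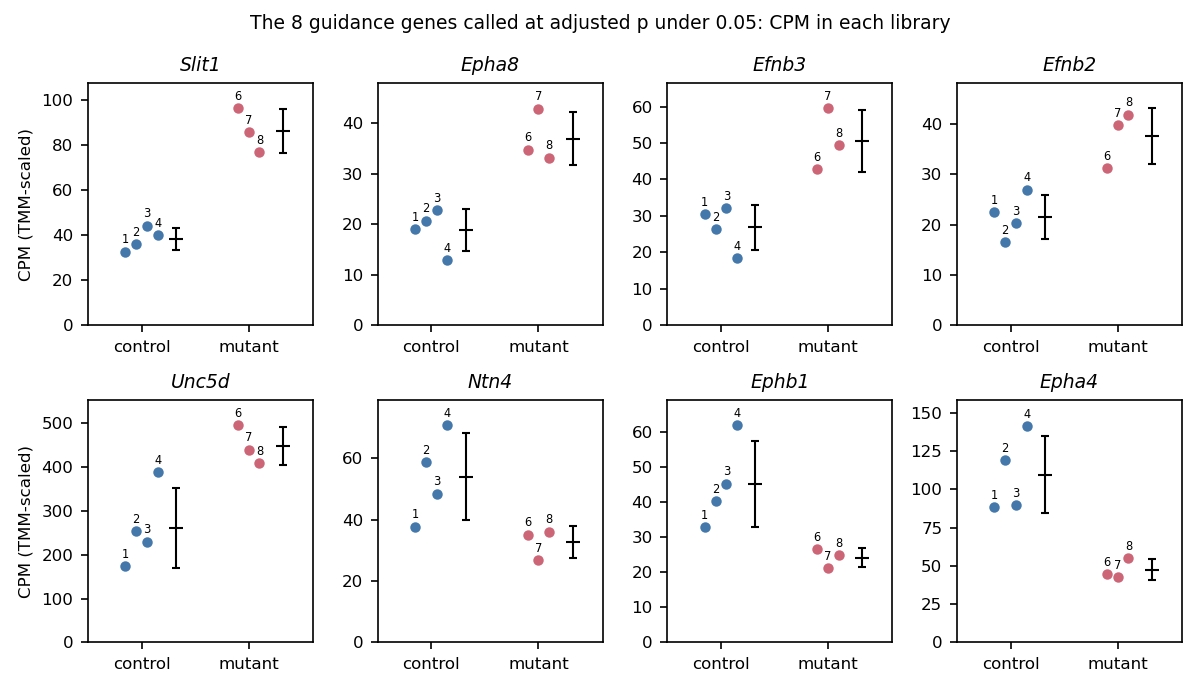
CPM (y axis, linear from 0) of the 8 called guidance genes in each library; numbers are the mouse numbers of the labels, and black marks show mean and SD of 4 controls and 3 mutants. The groups are apart in every panel, by a wide gap for Slit1 and Epha4 and by a narrow one for Ntn4, where control 1 (37.7 CPM) is close to mutant 8 (36.1 CPM).

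Promoters of the called genes were read because a receptor for thyroid hormone binds DNA at copies of the half-site AGGTCA. RefSeq sequence on GRCm38.p6 was at hand for 33 of the 38 members, with 38 start sites. The window was the 250 bases before each RefSeq start. The half-site, on either strand, was in 4 of these 38 windows (10.5%) and in 14.0% of 32851 windows of all genes. A pair of such half-sites in direct repeat with any 4 bases between them, the classical arrangement for this receptor, was in 0 of the 38 windows and in 5 of all windows (0.0152%). Of the called genes with a sequence, only Ntn4 had a half-site, and Epha4, Epha8, Ephb1 and Efnb2 had no match to these letters. The windows of the largest fall and the largest rise with a sequence are shown beside that of Ntn4, with the half-site in capitals. They lie at chr1:77515089-77515338 (minus strand) for Epha4, chr4:136956817-136957066 (minus strand) for Epha8 and chr10:93640799-93641048 (plus strand) for Ntn4. In GENCODE M21 the Ntn4 gene starts at 93640681, so its window lies inside the gene of that annotation. The Ntn4 half-site is thus upstream of the RefSeq start only.
Epha4: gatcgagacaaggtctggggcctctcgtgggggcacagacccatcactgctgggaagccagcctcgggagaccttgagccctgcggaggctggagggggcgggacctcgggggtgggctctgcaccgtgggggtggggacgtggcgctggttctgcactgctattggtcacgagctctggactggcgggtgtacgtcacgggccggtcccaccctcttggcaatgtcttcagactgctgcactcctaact
Epha8: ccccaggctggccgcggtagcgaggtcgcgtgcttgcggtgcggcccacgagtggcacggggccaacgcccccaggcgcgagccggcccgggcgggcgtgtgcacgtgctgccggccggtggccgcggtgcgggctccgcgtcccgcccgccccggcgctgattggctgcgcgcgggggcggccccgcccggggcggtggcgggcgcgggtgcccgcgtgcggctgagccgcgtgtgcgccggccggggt
Ntn4: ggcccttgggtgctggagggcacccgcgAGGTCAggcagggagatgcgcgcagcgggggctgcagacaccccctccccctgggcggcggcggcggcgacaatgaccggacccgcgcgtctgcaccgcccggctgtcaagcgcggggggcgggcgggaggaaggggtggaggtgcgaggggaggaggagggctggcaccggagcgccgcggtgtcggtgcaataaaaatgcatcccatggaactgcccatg
All of these are rich in G and C, at 66.0%, 84.0% and 73.2%, and the median over member windows was 65.2%, against 52.4% over all windows. A match to letters is no evidence of binding, and windows farther from the start were not read.

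Between genes, levels were compared as CPM per kb of merged exons, since longer genes collect more reads. In controls the order was led by Epha6 (74.4), Efna5 (51.3), Robo1 (46.2), Epha10 (41.9), Ephb6 (41.5) and Robo2 (35.2), followed by the netrin receptors Unc5d (28.4), Dcc (22.7) and Unc5c (19.6). Ligands other than Efna5 stood lower, from 17.3 for Slit3 and 14.4 for Ntn4 to 0.862 for Efna1 among those tested. The neighbours in this order were mostly not separable: the ranges over 4 controls overlapped in 34 of 37 neighbouring pairs. In mutants Slit1 stood in place 13 instead of 20, Epha4 in place 21 instead of 13, and Unc5d in place 3 instead of 7. Whether reads in introns were counted is not given in the sources used here, and these levels assume that they were not. If they were, dividing by exons raises genes with long introns, such as Epha6, with a span of 952 kb and 5.29 kb of exons. The order would then not be one of RNA level.

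Many guidance genes are very long, and the controls differed along gene length. Of the 35 tested members 18 span more than 100 kb, up to 1097 kb for Dcc. In all 18, control 1 was the lowest control, and in 17 of them control 4 was the highest. The log2 ratio of control 1 to control 4 had a median of -1.02 over these 18 genes (range -1.53 to -0.29) and of 0.17 over the 17 shorter members, compared with -0.73 over all tested genes longer than 100 kb and 0.47 over those under 10 kb. Mutants were closer to each other, with a median coefficient of variation of 9.40% over the 18 long members, where controls had 29.1%. The short members with the clearest reverse order were Efna1 (0.80), Robo4 (0.71) and Efnb3 (0.71), while Epha1, at 14.8 kb, stood at -1.35. Control 4 was also the only control nearly without reads of Y-linked genes, at 4 against 5482 to 6644 in controls 1 to 3. Among the mutants, mutant 8 had 3. The part of this in the order of the controls was not tested.

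**Figure D3:**
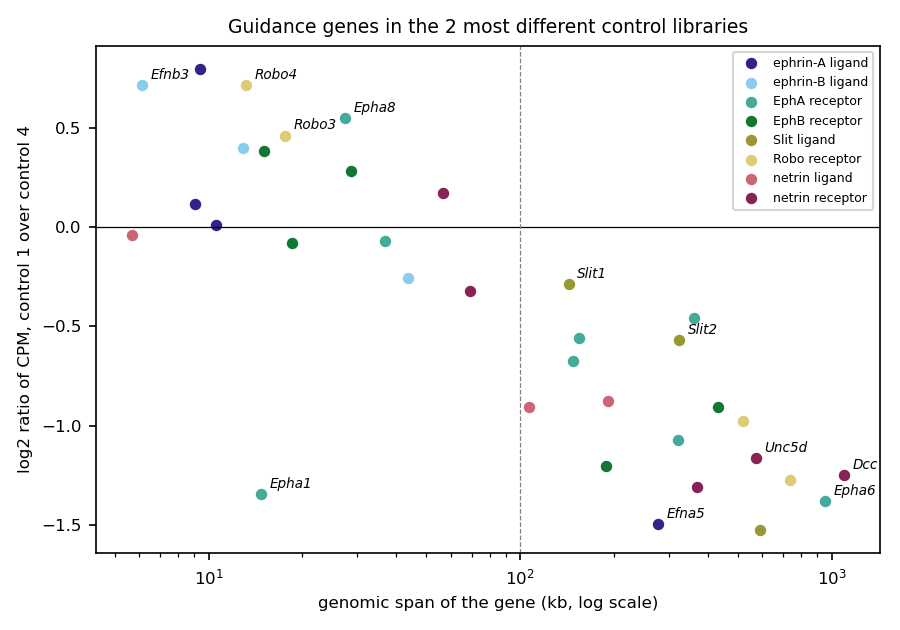
Log2 ratio of CPM in control 1 over control 4 (y axis) against genomic span in kb (x axis, log scale) for the 35 tested guidance genes, coloured by family; the dashed line is at 100 kb. To the right of it the 18 long genes all lie below 0, down to -1.53.

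The number of called members differed between fits that treat this spread differently. When each library was given an offset from its trend with genomic span, the 8 called genes remained called, and 8 more passed, where 2753 of all 16448 genes were called: Efna5 (-0.54), Epha3 (-0.65), Epha6 (-0.56), Epha10 (-0.38), Ephb2 (-0.57) and Robo1 (-0.57) as lower, and Dcc (0.61) and Efna3 (0.56) as higher. The log2 fold changes hardly moved, and the errors shrank, for Robo1 from 0.25 to 0.0831 and for Dcc from 0.23 to 0.0827. Without controls 1 and 4 the 8 genes were also called, with 10 higher and 10 lower among the members, where 2778 of 16684 genes were called. DESeq2 called 5 members higher and 5 lower, adding Epha3 and Epha10, and 1989 of all 16448 genes. No called member changed sign in any alternative fit.

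**Figure D4:**
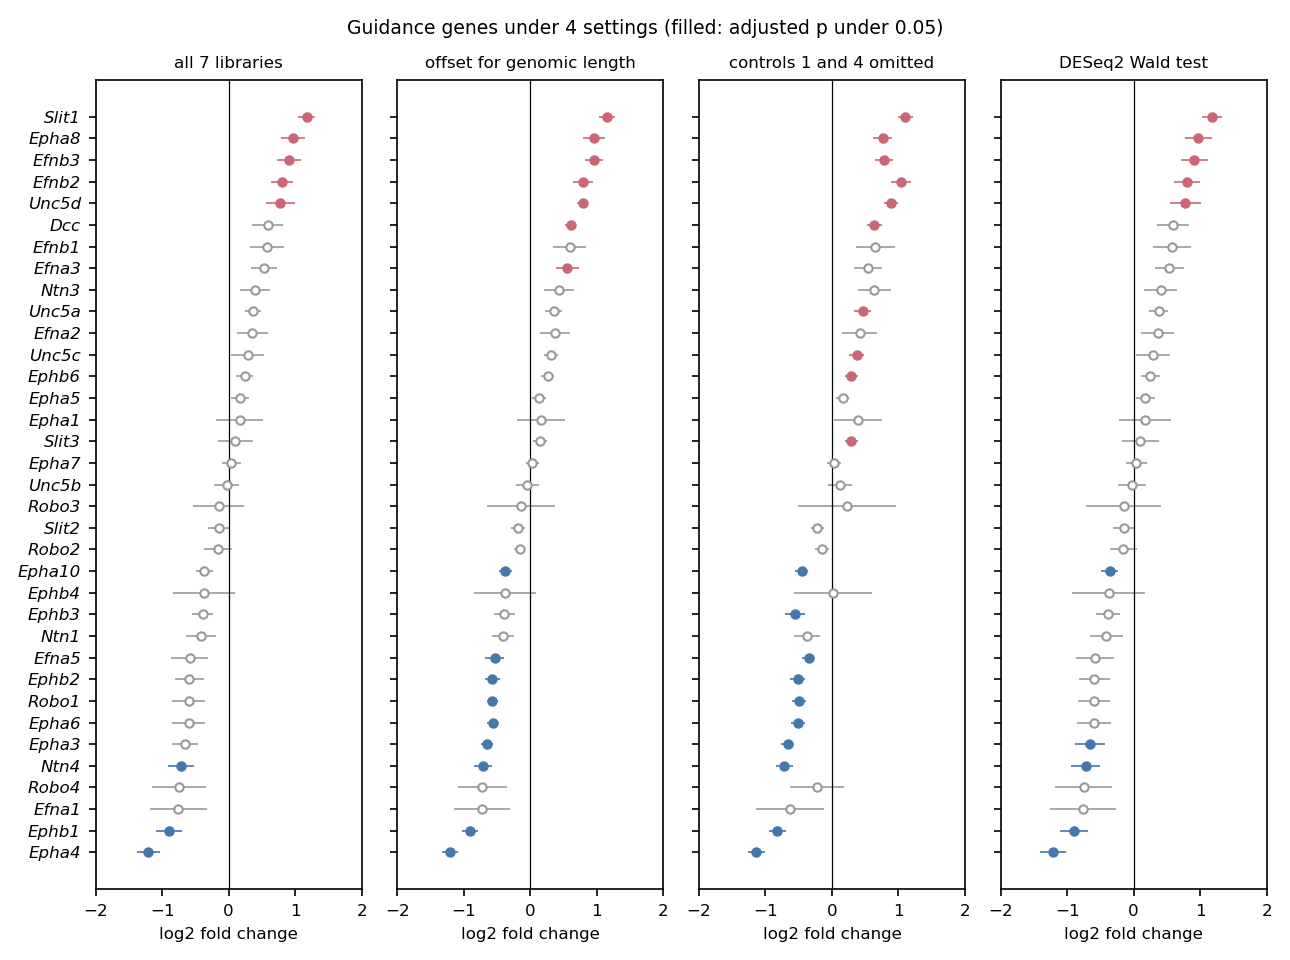
Log2 fold change with SE (x axis) of the 35 tested guidance genes (y axis, ordered by the value with all 7 libraries) under 4 settings; filled points are called. The 8 genes filled in the first panel are filled in all panels, and the offset for genomic length fills 8 further genes at nearly unchanged positions.

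Partners that carry or modify these signals were taken from 3 lists of 78 genes in all, of which 72 were tested. Of these, 7 were called higher and 4 lower (15.3%, beside 9.42% of all tested genes), with a median log2 fold change of 0.01. Untested were Pick1 and Sdc1, with few reads, and Itsn1, Flrt3, Lrrc4 and Flrt1, with 0 reads in every library. Whether those zeros reflect absent RNA or reads dropped where genes overlap was not tested. Among 23 tested Eph and ephrin partners, Chn1 was called lower, and Ngef, Ptpro and Afdn higher (17.4% called). Chn1, the Rac-inactivating chimaerin that acts downstream of EphA4, was at 124, 145.5, 132 and 178 CPM in controls and at 89.0, 84.9 and 91.5 CPM in mutants (log2 fold change -0.71, SE 0.13, edgeR adjusted p 0.00495). Like Epha4 it had no overlap, and it was called in all 18 alternative fits. Ngef (0.48, SE 0.11), an exchange factor that binds Eph receptors, Ptpro (0.51, SE 0.14), a phosphatase that acts on Eph receptors, and Afdn (0.50, SE 0.12), a junctional scaffold that binds them, had adjusted p-values from 0.0204 to 0.0375.

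In the Slit and Robo list, 2 of 23 tested genes were called, both higher (8.7%, beside 9.42% of all tested genes). Srgap1, a Robo-bound protein that inactivates small GTPases, was at 45.9, 76.8, 77.3 and 91.3 CPM in controls and at 174.5, 174.9 and 155.9 CPM in mutants. Its difference was as large as that of Slit1 (log2 fold change 1.21, SE 0.18, edgeR adjusted p 0.00139), and it was called in all 18 alternative fits. Nell1, a secreted relative of the Robo3 ligand Nell2, was at 80.0 to 184 CPM in controls and at 237 to 243 CPM in mutants (0.93, SE 0.21, adjusted p 0.0149).

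In the netrin receptor list, 2 of 26 tested genes were called higher and 3 lower (19.2%, beside 9.42% of all tested genes). Neo1, the receptor most like Dcc, was at 62.7 to 82.3 CPM in controls and 99.55 to 103 CPM in mutants (log2 fold change 0.53, SE 0.11, edgeR adjusted p 0.0102). Rgma, a ligand of Neo1, was lower (-1.10, SE 0.30, adjusted p 0.0397), at 4.12 to 9.28 CPM in controls and 2.35 to 3.58 CPM in mutants. Draxin, a secreted ligand of Dcc, was higher (1.68, SE 0.36, adjusted p 0.0106) but scarce, at 0.565 to 1.29 CPM in controls and 2.27 to 3.68 CPM in mutants. Ntng1, a lipid-anchored netrin relative that does not use Dcc, fell from 30.9 to 77.3 CPM in controls to 22.3 to 26.5 CPM in mutants (-0.98, SE 0.25, adjusted p 0.0289), and Trim9, a ubiquitin ligase that binds Dcc, was lower too (-0.54, SE 0.15, adjusted p 0.0385). Of the 11 called partners, Chn1 and Srgap1 stayed called in every fit without 1 library. The other 9 each lost their call in between 2 and 6 of those 7 fits, with adjusted p-values up to 0.195, and among them were the fits without mutant 6 and without mutant 7 for all 9.

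Markers of interneuron classes moved between the same groups of libraries. Of 8 parvalbumin neuron markers 4 were called lower and 0 higher: Pvalb (-4.48), Syt2 (-2.18), Kcnc1 (-1.40) and Kcnab3 (-1.08). Kcnc2 (0.32) and Kcns3 (0.23) of that list had positive values and were not called, and its summed level overlapped, at 2015 to 3082 CPM in controls and 2190 to 2468 CPM in mutants. Of 8 somatostatin neuron markers 3 were called higher and 1 lower, with summed levels of 1708 to 1982 CPM in controls and 2487 to 2908 CPM in mutants. Of 8 VIP neuron markers 3 were higher and 1 lower, with overlapping sums of 592.5 to 811 CPM and 785 to 821 CPM, and of 8 LAMP5 neuron markers 1 was higher and 2 lower (508 to 560.0 CPM summed in controls, 384 to 490 CPM in mutants). Astrocyte markers summed to 275 to 348 CPM in controls and 215 to 236 CPM in mutants, with 1 of 7 tested called lower and Gfap at 0 in every library. Most of these sums was the called gene, Slc4a4, at 167.6 to 248.1 CPM in controls and 133.4 to 156.9 CPM in mutants (-0.54, edgeR adjusted p 0.0366). The 6 tested astrocyte markers that were not called each overlapped between groups. Microglial markers summed to 14.6 to 19.9 CPM and 20.8 to 24.2 CPM, with none of 6 tested called and P2ry12 and Itgam at 0. Oligodendrocyte (160 to 198 and 175 to 210 CPM), glutamatergic (80.4 to 148 and 85.9 to 139 CPM) and striatal projection neuron markers (162 to 235 and 210 to 283 CPM) overlapped between groups in their sums. Of 8 genes in each of these lists, Mog was called higher among oligodendrocyte markers (0.93, edgeR adjusted p 0.00545), Rgs9 among striatal markers (0.81, adjusted p 0.0104), and 0 among glutamatergic markers. The part that any of these differences has in the values of the guidance genes was not tested.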

How the data were processed

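Nuclear RNA of sorted GABAergic nuclei, 1 cortex per library, was amplified with SMART-Seq v4 and sequenced as paired reads without molecular identifiers, per the labels' protocols. The deposited values are raw counts per gene. Bowtie2 2.5.3 and the mouse build mm10 (GRCm38) are named in the submitters' processing notes, while the counting tool and its strand setting are not given in the sources used here. Symbols, positions and spans came from GENCODE M21, and promoters from RefSeq (GRCm38.p6).

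Controls 1 to 4 were compared with mutants 6, 7 and 8 in edgeR 4.0.16 (R 4.3.3): filterByExpr (minimum count 10, minimum total 15), TMM scaling, robust quasi-likelihood test, two-sided, and Benjamini-Hochberg adjustment over all tested genes. With 1 cortex per library, p-values set the difference between the groups against the spread between these libraries. Total counts were 10747169 to 13804734 per library. The steps were tested on simulated data for this comparison (16154 genes), where 68 of 99 genes changed by a log2 fold of 1 and 92 of 96 changed by 2 were recovered, with 7 false calls. The simulated counts held no trend with gene length, so these rates do not cover the spread of long genes among the controls. Alternatives were DESeq2 1.42.0, limma 3.58.1 (voom with quality weights), other scalings and filters, an offset for genomic length, a covariate for Y-linked reads, all 8 tables, and fits without single libraries or pairs of them.

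The guidance genes were named by a rule on their symbols and all are accounted for. Partner genes were named where called, and the half-site was searched in all 38 promoter windows of the 33 members with an entry. Of the 5 called genes with an entry, 3 windows are printed: those of the largest fall and the largest rise, and that of Ntn4 for its half-site. The members, partner lists and marker lists were chosen with earlier results of these data known. No protein sequence was used here.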

Additional observations from a re-analysis of the deposited data

How the results depend on the processing

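With all 7 libraries 5 guidance genes were called higher and 3 lower. RLE or upper-quartile scaling and a filter at a mean of 1 CPM gave the same 8 genes, and without a filter Unc5d was lost (edgeR adjusted p 0.0646). Higher calls numbered 8 with limma-voom, 10 without controls 1 and 4, and 1 when an absolute log2 fold change over 1 was also required. Lower calls numbered 5 with DESeq2, 9 with limma-voom, 9 with the length offset, 10 without controls 1 and 4, 5 with all 8 tables, where mutant 7 counts as 2 mutants, and 1 with the fold requirement. Leaving out 1 library gave 2 to 8 higher and 1 to 8 lower, with the fewest of both without mutant 7. Over all genes these fits called 734 to 2347 against 1549, and limma-voom called 3147, the length offset 2753, 2530 were called with all 8 tables, 2778 without controls 1 and 4, and 641 with the fold requirement. Of the partner genes 7 were called higher and 4 lower. Higher partners numbered 13 with limma-voom, 11 with the length offset, 12 without controls 1 and 4, 11 without control 4 and mutant 8, 2 with the fold requirement, and 1 to 11 without 1 library. Lower partners numbered 7, 8, 8, 1 and 1 in the same settings, 7 with all 8 tables, and 1 to 6 without 1 library.

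Signs turned in 7 uncalled genes. Without 1 library the log2 fold changes ran from -0.0003 to 0.53 for Epha1, from -0.0472 to 0.13 for Epha7, from -0.0842 to 0.46 for Slit3, from -0.30 to 0.0108 for Robo2, from -0.47 to 0.27 for Robo3 and from -0.25 to 0.0916 for Unc5b. Without controls 1 and 4, Ephb4 was at 0.018, Robo3 at 0.23 and Unc5b at 0.12. Without control 4 and mutant 8, Robo2 was at 0.0445 and Unc5b at 0.20, and with limma-voom Unc5b was at 0.0218. No value of turned sign was called. The cause was not tested. No paired analysis was possible because the groups share no replicate numbers. Depth limits Efna1, Epha1, Ephb4 and Robo4, and leaves Efna4, Epha2 and Ntn5 untested.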

Other observations

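Several guidance genes are neighbours on a chromosome, and neighbours did not always share a direction. Epha8 and Ephb2 lie 93.4 kb apart on chromosome 4, with log2 fold changes of 0.97 (called higher) and -0.59 (not called). Efna1 and Efna3 lie 32.8 kb apart on chromosome 3, at -0.76 and 0.53, neither called. Robo3 and Robo4 lie on opposite strands of chromosome 9, with their 3′ ends 0.554 kb apart, at -0.15 and -0.75, neither called. Robo1 and Robo2 lie 846 kb apart on chromosome 16, at -0.60 and -0.16. The difference between neighbours was not tested.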
